A study of Mus musculus with 74 samples.

Results

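The subject is a set of 6 genes for dual-specificity phosphatases that act on MAP kinases: Dusp1, Dusp2, Dusp4, Dusp6, Dusp10 and Dusp14. They were chosen by the gene symbol that the array platform gives to a probe, 1 probe per gene, and so make up 6 of 13409 genes named by probes with a single symbol, among 16463 probes in all. The 74 two-colour arrays fall into 11 groups, and each array carries a test RNA and a partner RNA from mouse cells. All values are log2 ratios of test over partner, centred on the array's median, so 0 means no difference and positive values mean more in the test RNA. The log base is taken to be 2, which the labels leave unstated.

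In 50 arrays the partner was untreated DO11.10 cells, a T cell hybridoma (a fusion line grown in culture), and the test RNA came from the same line after retroviral transduction. Empty MSCV virus was used in 2 sets, called set A (12 arrays) and set B (4 arrays). The other constructs were HDAC7-VP16 (10 arrays), MEF2D-VP16 (4 arrays) and Nur77 (4 arrays). By their names the VP16 constructs carry the VP16 activation domain of a herpesvirus, while HDAC7 is a histone deacetylase, MEF2D a transcription factor that it binds, and Nur77 the nuclear receptor encoded by Nr4a1. In another pair of groups, cells with the empty virus or with the construct labelled HDAC7 DP (8 arrays each) were treated for 2.5 h with PMA, which activates protein kinase C, and the calcium ionophore ionomycin, a substitute for antigen receptor signals. The labels do not say what DP stands for or how many separate transductions were made. The remaining 24 arrays held total thymocytes. One group set thymocytes of mice with the DO11.10 T cell receptor transgene against those of mhc -/- mice, and 3 groups set DO11.10 thymocytes of mice injected with peptide 3 h, 6 h or 12 h earlier against those of mice left uninjected (6 arrays each). The labels name no age, strain or number of animals, so the arrays of a group may share RNA, and a p-value here reflects array-to-array spread only.

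MAP kinases (ERK, JNK and p38) carry signals from the T cell receptor and from Ras to the nucleus, and are switched on by phosphorylation of a threonine and a tyrosine in their activation loop. Dual-specificity phosphatases remove both phosphates, and several of their genes are themselves switched on by MAP kinase signals, which makes them feedback inhibitors. Dusp1, Dusp2 and Dusp4 encode inducible nuclear enzymes, Dusp6 a cytoplasmic enzyme that prefers ERK, Dusp10 an enzyme that prefers JNK and p38, and Dusp14 a small enzyme without the kinase-binding domain of the others. On build GRCm38.p6, RefSeq places Dusp1 at chr17:26505591-26508472, Dusp2 at chr2:127336159-127338377, Dusp4 at chr8:34807610-34819894, Dusp6 at chr10:99263231-99267489, Dusp10 at chr1:184034381-184075636 and Dusp14 at chr11:84048033-84069256. Where in these genes the probes lie is not given by the platform table used here.

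The upstream sequences of 3 members are shown, Dusp1 because it held the sole match among the 5 members' windows searched, and Dusp2 and Dusp10 because they fell in stimulated HDAC7 DP cells. Each is the 250 bases before the gene's start, written 5′ to 3′ on the gene's own strand, from RefSeq on build GRCm38.p6. The windows are chr17:26508473-26508722 (minus strand) for Dusp1, chr2:127335909-127336158 (plus strand) for Dusp2 and chr1:184034131-184034380 (plus strand) for Dusp10. Capitals mark the match to the cyclic AMP response element.
Dusp1: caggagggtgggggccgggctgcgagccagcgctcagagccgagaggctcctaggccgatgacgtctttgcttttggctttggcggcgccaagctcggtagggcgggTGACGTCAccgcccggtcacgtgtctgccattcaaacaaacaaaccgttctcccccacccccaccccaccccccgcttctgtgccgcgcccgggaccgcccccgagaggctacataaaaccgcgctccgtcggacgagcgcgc
Dusp2: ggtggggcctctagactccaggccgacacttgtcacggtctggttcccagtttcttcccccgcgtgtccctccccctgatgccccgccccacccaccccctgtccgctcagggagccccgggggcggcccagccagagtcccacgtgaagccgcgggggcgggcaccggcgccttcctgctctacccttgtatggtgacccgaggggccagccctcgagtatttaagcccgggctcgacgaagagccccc
Dusp10: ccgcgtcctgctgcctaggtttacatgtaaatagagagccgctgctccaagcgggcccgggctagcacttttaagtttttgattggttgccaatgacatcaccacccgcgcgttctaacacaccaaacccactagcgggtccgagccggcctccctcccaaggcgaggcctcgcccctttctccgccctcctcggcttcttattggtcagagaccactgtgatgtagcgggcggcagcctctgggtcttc
Both strands were searched for 7 motifs: the cyclic AMP response element TGACGTCA, the AP-1 site TGANTCA, the Nur77 site AAAGGTCA, the EGR site GCGTGGGCG, the NFAT core GGAAAA, and the serum response (CArG) and MEF2 motifs. The match in Dusp1 began at position -143 from the start, and 1.55% of the 32851 upstream windows of the same length held this motif. None of the motifs was matched in the windows of Dusp2, Dusp6, Dusp10 and Dusp14, and Dusp4 was not searched. The Dusp14 window, chr11:84068358-84068607 (minus strand), lies inside the gene span given above, so it precedes a start within the gene and not the outermost one. Over all windows the shares were 6.75% for AP-1, 1.34% for the Nur77 site, 0.536% for EGR, 20.4% for NFAT, 1.47% for CArG and 0.508% for MEF2. A match is a description of letters, and binding was not measured.

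The arrays themselves carry limits that touch single results. By their titles, the arrays of every group were split equally between the dye orientations. Arrays with opposite dyes had a positive median correlation in 8 groups and a negative one in set A (-0.401), HDAC7-VP16 (-0.475) and set B (-0.241). The ratios were taken as already turned to test over partner, which is an assumption. It was read from Nr4a1, whose mean ratio was 4.50 on the Nur77 arrays and 4.30 on the stimulated empty-virus arrays. Same-dye pairs were examined only among the arrays of set A, HDAC7-VP16, stimulated empty virus and stimulated HDAC7 DP. Every such pair with a correlation under -0.3 held replicate 3 or 9 of set A (10 of 171 Cy5 pairs and 9 of 171 Cy3 pairs). Replicates 1 and 2 of MEF2D-VP16 list 299 and 393 probes at exactly 0, of which 270 are at 0 on both, against 16 to 69 on the other 72 arrays. A change is called at an adjusted p under 0.05, with limma's moderated test and the Benjamini-Hochberg adjustment over all 16463 probes, and "rose" and "fell" are used of called changes.

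The members behaved differently from each other. Over 14 comparisons, Dusp4 rose in 8 and fell in 0, Dusp6 rose in 5 and fell in 1, and Dusp10 rose in 4 and fell in 2. Dusp1 rose in 4 and fell in 4, Dusp2 rose in 2 and fell in 2, and Dusp14 rose in 0 and fell in 2. Several comparisons share control arrays, so these counts are not independent.

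**Figure D1:**
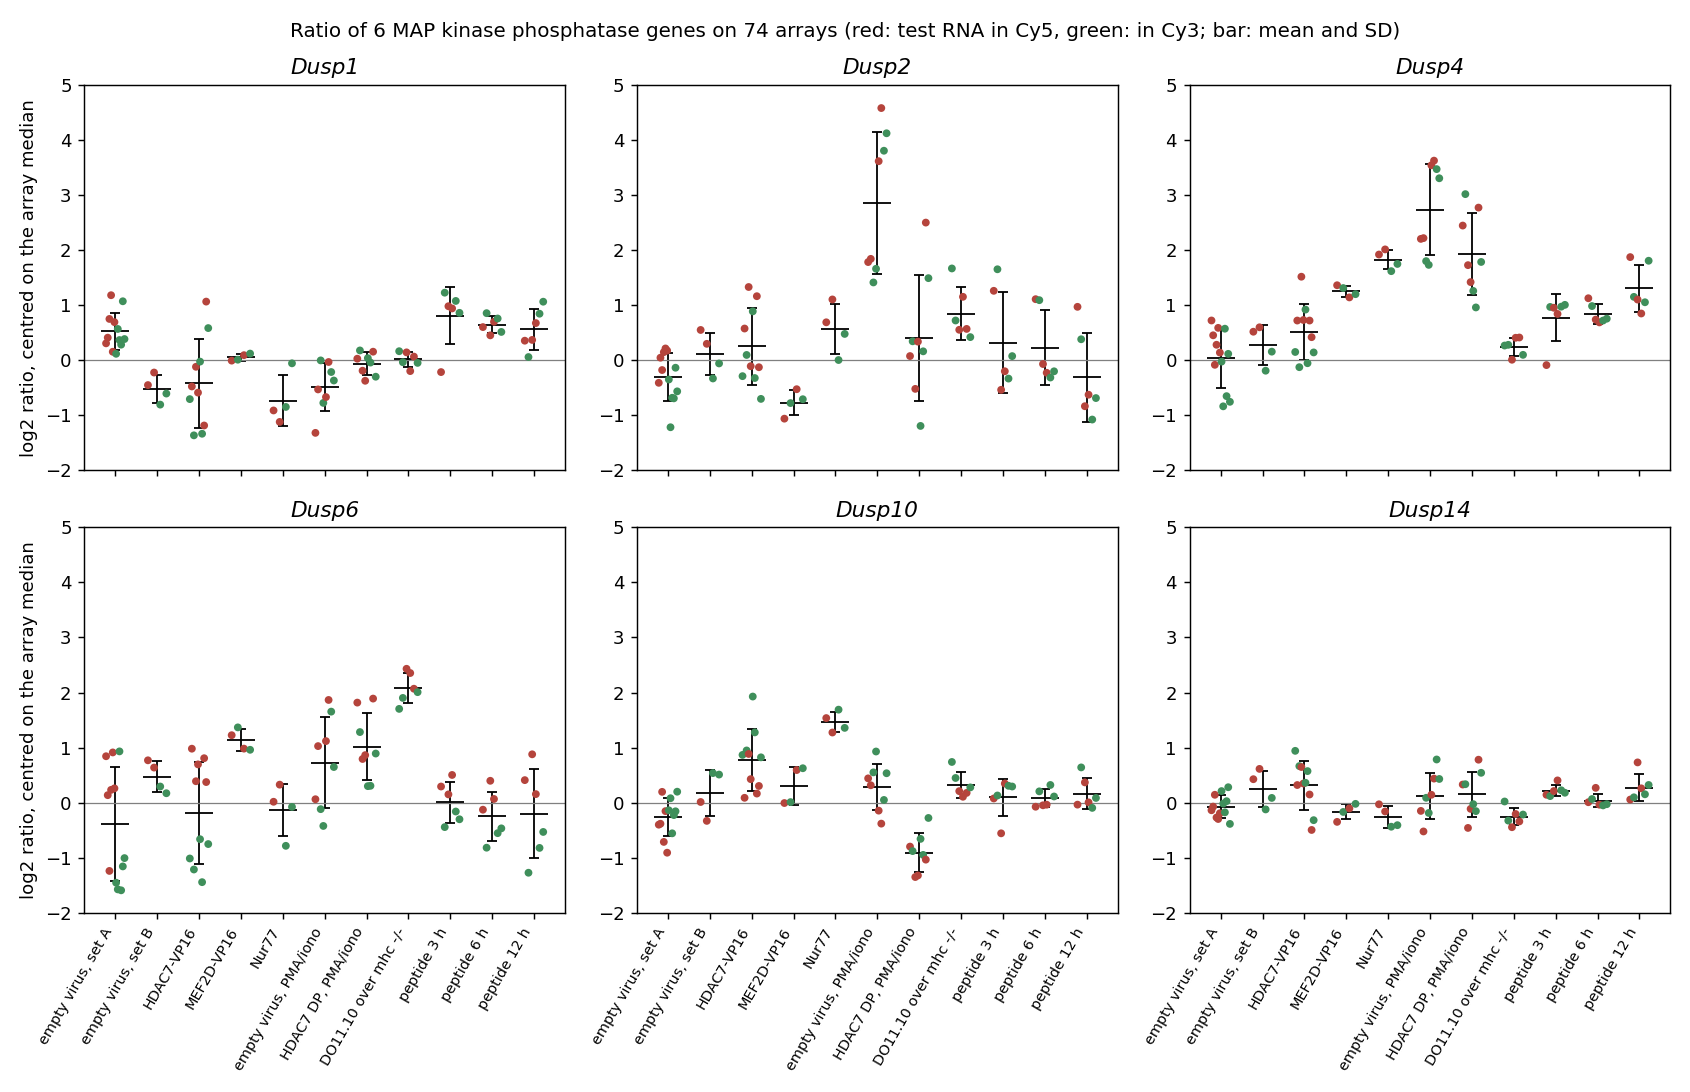
Log2 ratio of each gene (vertical axis, test RNA over partner RNA, centred on the array median) on every array of the 11 groups (horizontal axis), with red points for test RNA in Cy5, green for Cy3, and a bar for mean and SD. The highest means are those of Dusp2 (2.85) and Dusp4 (2.74) in stimulated empty-virus cells and of Dusp6 (2.08) in DO11.10 thymocytes over mhc -/- thymocytes.

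**Figure D2:**
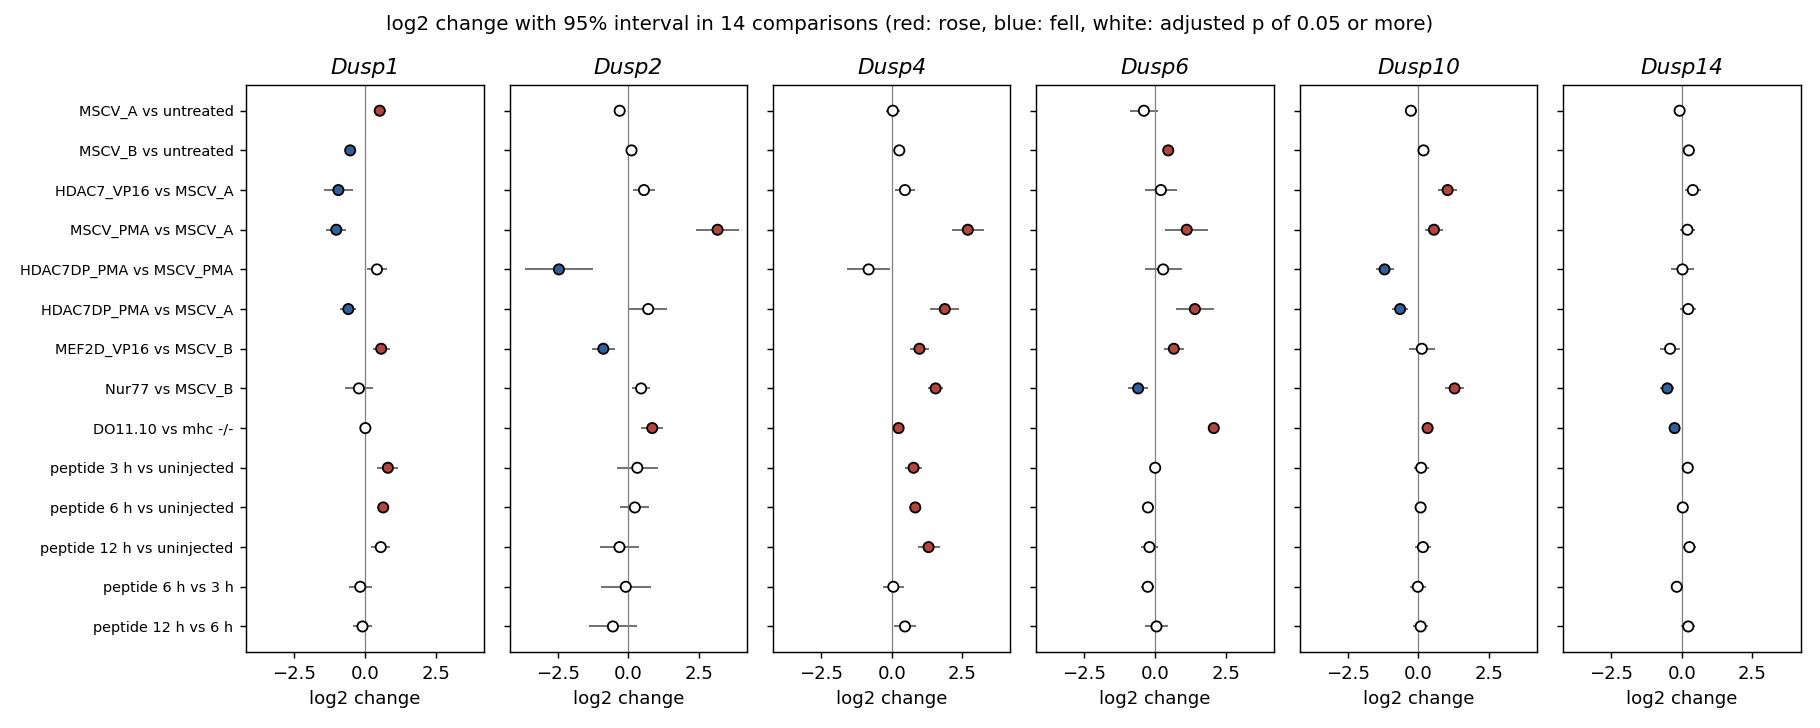
Log2 change (horizontal axis) with its 95% interval for 6 genes in 14 comparisons (rows), filled red where the gene rose, blue where it fell and white where it was not called. Dusp4 is red in 8 rows and blue in 0, while Dusp1 is red in 4 rows and blue in 4.

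The empty virus was compared first, since it is the control for every construct. Against untreated cells, Dusp1 rose in set A and fell in set B. In set A its ratio had a lowest value of 0.12, a median of 0.40 and a highest of 1.18, and all 12 arrays were above 0. In set B the values were -0.45, -0.22, -0.81 and -0.60, all below 0 and below every array of set A. The changes were 0.52 (SE 0.09, adjusted p = 0.0129) and -0.52 (SE 0.08, adjusted p = 0.0139). Dusp6 rose in set B (0.77, 0.64, 0.29 and 0.17, change 0.47, SE 0.08, adjusted p = 0.0158). The call of Dusp1 in set B was lost without replicate 1 or 3, and that of Dusp6 without replicate 1, 3 or 4. The other 5 genes in set A and the other 4 in set B were not called. Over all probes 0.626% rose and 1.35% fell in set A, and 2.71% rose and 3.01% fell in set B. A direction given for Dusp1 against an empty virus therefore depends on the set used, and its value against untreated cells is given beside it below.

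Stimulation of empty-virus cells with PMA and ionomycin raised 4 of the 6 genes and lowered 1, against 6.07% of all probes higher and 6.43% lower. The median change of the 6 was 0.84, beside -0.01 over all probes. Dusp2 and Dusp4, nuclear phosphatases known as early response genes, showed the largest differences among the members. Dusp2 had a lowest ratio of 1.41, a median of 2.73 and a highest of 4.58 on the 8 stimulated arrays, against -1.22, -0.26 and 0.21 on the 12 arrays of set A. The ranges did not overlap, and the change was 3.16 (SE 0.37), 8.92-fold (adjusted p = 5.33e-06). Dusp4 ranged from 1.73 to 3.62 (median 2.76) against -0.84 to 0.72 (median 0.13). Its ranges did not overlap either, and it rose 6.47-fold (log2 change 2.69, SE 0.27, adjusted p = 7.36e-07).

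Dusp6, the ERK phosphatase of the cytoplasm, ranged from -0.42 to 1.86 (median 0.84) in stimulated cells and from -1.59 to 0.93 (median -0.44) in set A. These ranges overlapped, and the change of 1.12 (SE 0.36, adjusted p = 0.0462) was lost under 7 of 15 alternative settings. Dusp10 rose by 0.55 (SE 0.15, adjusted p = 0.0179), from a median of -0.19 in set A to 0.38, with overlapping ranges, and was lost under 5 of 15. Against untreated cells neither was called (0.73, adjusted p = 0.0877, and 0.29, adjusted p = 0.143). Dusp14 was not called (0.20, 95% interval -0.07 to 0.48).

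Dusp1, also known as an early response gene, went the other way. Its ratio on the 8 stimulated arrays had a lowest value of -1.32, a median of -0.45 and a highest of -0.003, the last deposited as exactly 0, and all lay below every array of set A. The change was -1.01 (SE 0.17, 2.02-fold, adjusted p = 0.000345). Against untreated cells it was smaller but still called, at -0.49 (SE 0.14, adjusted p = 0.0427). Unstimulated set B had a mean of -0.52, about the level of these stimulated arrays, and was not tested against them alone. The stimulated values are levels at a single time of 2.5 h.

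The stimulated arrays fell into slide pairs that differed in size of response. On slides 13 and 14 Dusp2 averaged 1.67 ± 0.19 (SD, n = 4) and on slides 15 and 16 it averaged 4.03 ± 0.42 (SD, n = 4). Dusp4 averaged 1.99 ± 0.26 and 3.49 ± 0.14 on the same pairs. Within each pair the 4 arrays, of both dyes and both slide series, lay closer together than the pairs did for these 2 genes. Dusp10 had its higher mean on the other pair, at 0.56 ± 0.26 on slides 13 and 14 and 0.01 ± 0.39 on slides 15 and 16. The labels do not say whether the slides of a pair share RNA.

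Stimulated cells with HDAC7 DP were then compared with stimulated empty-virus cells, which asks whether this form of the deacetylase alters the response. Dusp2 and Dusp10 fell and no member rose, against 0.522% of all probes higher and 1.12% lower. Dusp2 had a lowest ratio of -1.19, a median of 0.25 and a highest of 2.50 with HDAC7 DP, against 1.41, 2.73 and 4.58 with the empty virus. Only 2 of the 8 HDAC7 DP arrays, both of series 15, reached the range of the empty virus. The change was -2.45 (SE 0.57, 5.47-fold, adjusted p = 0.0369).

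Dusp10, the phosphatase of JNK and p38, was below 0 on all 8 HDAC7 DP arrays (lowest -1.35, median -0.91, highest -0.28) and above 0 on 6 of the 8 empty-virus arrays (lowest -0.38, median 0.38, highest 0.93). It fell by 1.20 (SE 0.15, 2.29-fold, adjusted p = 0.000314), and the ranges overlapped. Both empty-virus slide pairs, at 0.56 and 0.01, lay above both HDAC7 DP pairs, at -0.75 (slides 17 and 18) and -1.07 (slides 19 and 20). For Dusp2 the HDAC7 DP pairs averaged 1.10 ± 1.12 and -0.30 ± 0.70 (SD, n = 4 each). With slides of a pair averaged, so that each group had 2 values, neither change was called (adjusted p of 1 for both genes) although the sizes were the same. Within slide series 14 and 15 the Dusp2 change was -2.98 (adjusted p = 0.0885) and -1.93 (adjusted p = 0.889), and the Dusp10 change was -1.15 (adjusted p = 0.0463) and -1.25 (adjusted p = 0.125).

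Dusp4 averaged 2.50 and 1.34 on the HDAC7 DP pairs against 1.99 and 3.49 on the empty-virus pairs, so these overlapped. Its change of -0.81 (95% interval -1.58 to -0.05) was not called (adjusted p = 0.372). Dusp6 (0.29, interval -0.36 to 0.94), Dusp1 (0.43, 0.09 to 0.76) and Dusp14 (0.03, -0.39 to 0.44) were not called.

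**Figure D3:**
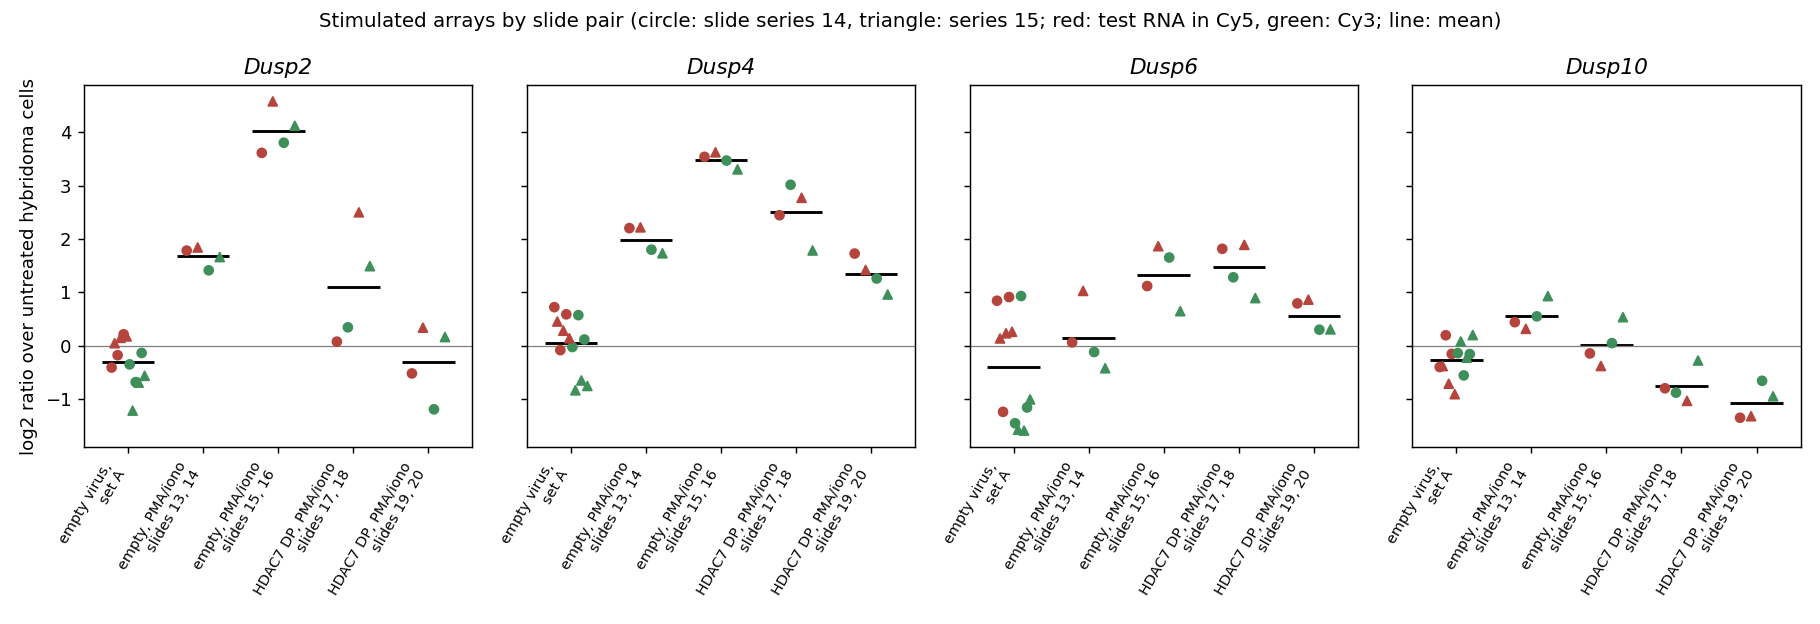
Log2 ratio over untreated hybridoma cells (vertical axis) for 4 genes in set A and in the slide pairs of the stimulated groups (horizontal axis), with circles for slide series 14, triangles for series 15, colours for the dye of the test RNA and a line for each mean. Dusp2 sits near 1.67 on slides 13 and 14 and near 4.03 on slides 15 and 16, and Dusp10 is lower on both HDAC7 DP pairs than on either empty-virus pair.

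Set against unstimulated set A, the same HDAC7 DP arrays showed 2 members that rose and 2 that fell, against 6.23% of all probes higher and 6.97% lower. This comparison shares its arrays with the 2 before it. Dusp4 rose by 1.88 (SE 0.25, 3.68-fold, adjusted p = 1.66e-05), with a lowest value of 0.96 above the highest of set A, 0.72. Dusp6 rose by 1.41 (SE 0.32, adjusted p = 0.00413). Dusp10 fell by 0.65 (SE 0.14, adjusted p = 0.00225), and stood at -0.91 against untreated cells (SE 0.09, adjusted p = 0.000176). Dusp2 was not called (0.70, 95% interval 0.03 to 1.37, adjusted p = 0.19). Dusp1 fell by 0.59 against set A (adjusted p = 0.00425) but differed by -0.06 from untreated cells (adjusted p = 0.653).

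HDAC7-VP16, in which the repressor is joined to an activation domain, was compared with set A. Dusp10 rose and Dusp1 fell, against 1.42% of all probes higher and 1.29% lower. Dusp10 was above 0 on all 10 HDAC7-VP16 arrays (lowest 0.09, median 0.84, highest 1.93) and above 0 on 3 of the 12 arrays of set A (lowest -0.91, median -0.19, highest 0.20). The change was 1.03 (SE 0.16, 2.05-fold, adjusted p = 0.000399), and only the 2 lowest HDAC7-VP16 arrays (0.09 and 0.17) lay within the range of set A. It was 0.77 against untreated cells (SE 0.11, adjusted p = 0.00441). Within series 14 the change was 1.19 (adjusted p = 0.384) and within series 15 it was 0.95 (adjusted p = 0.000563). With HDAC7 DP and stimulation this gene had moved down, and in unstimulated cells with HDAC7-VP16 it moved up. The 2 constructs were not measured in the same state, so they were not compared directly.

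Dusp1 fell by 0.94 against set A (SE 0.24, adjusted p = 0.037), but the group was not uniform. Its values ran from -1.36 to 1.06 with a median of -0.53, and the only arrays above 0 were replicates 9 and 10, slides 11 and 12 of series 14, at 1.06 and 0.58. On series 15 alone the change was -1.53 (adjusted p = 0.000158), on series 14 alone it was -0.08 (adjusted p of 1), and against untreated cells it was -0.41 and was not called. The call was lost under 8 of 17 alternative settings. Replicates 9 and 10 also held the lowest values of Dusp14 (-0.50 and -0.32). Without them Dusp2 (0.72, adjusted p = 0.026) and Dusp14 (0.57, adjusted p = 0.000856) were called higher, which they were not with all arrays (0.55, adjusted p = 0.157, and 0.39, adjusted p = 0.156). Dusp4 (0.47, adjusted p = 0.19) and Dusp6 (0.21, adjusted p = 0.851) were not called. Under 3 of 17 alternative settings Dusp4 was called higher, with a lowest adjusted p of 0.00315.

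MEF2D-VP16 was compared with set B, and 3 members rose and 1 fell, against 6.4% of all probes higher and 6.16% lower. Dusp4 stood at 1.36, 1.31, 1.14 and 1.20, above the 0.52, 0.60, -0.19 and 0.16 of set B. It rose by 0.98 (SE 0.15, 1.98-fold, adjusted p = 0.0031). Dusp6 stood at 1.23, 1.37, 0.98 and 0.96, above the range of set B, 0.17 to 0.77, and rose by 0.67 (SE 0.16, adjusted p = 0.0213). Dusp2 stood at -1.06, -0.78, -0.53 and -0.71, below the range of set B, -0.33 to 0.55, and fell by 0.88 (SE 0.18, adjusted p = 0.0114).

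Against untreated cells the same 3 genes were called in the same directions, at 1.25 for Dusp4 (adjusted p = 0.000422), 1.13 for Dusp6 (adjusted p = 0.00101) and -0.77 for Dusp2 (adjusted p = 0.00398). Dusp1 rose by 0.58 against set B (adjusted p = 0.0189). Replicates 1 and 2, the arrays with many such values, list it at 0, and the others have 0.09 and 0.12. With such values left out its change was 0.63 (adjusted p = 0.0534), and against untreated cells it was 0.05 (adjusted p = 0.731). Dusp10 is listed at 0 on the same arrays, beside 0.59 and 0.62, and was not called (0.12, 95% interval -0.35 to 0.59, and 0.43 without the zeros, adjusted p = 0.247). Dusp14 was not called (-0.41, adjusted p = 0.146). Of the single arrays left out, MEF2D-VP16 replicates 2 and 4 and set B replicates 1, 3 and 4 each ended the call of Dusp1, and MEF2D-VP16 replicate 2 and set B replicates 3 and 4 that of Dusp6. The calls of Dusp2 and Dusp4 held in each case.

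Nur77 itself was compared with set B, and Dusp4 and Dusp10 rose while Dusp6 and Dusp14 fell, against 3.62% of all probes higher and 3.29% lower. Dusp4 stood at 1.92, 2.01, 1.62 and 1.75, all above set B, and rose 2.94-fold (log2 change 1.55, SE 0.12, adjusted p = 2.57e-05). Dusp10 stood at 1.54, 1.27, 1.69 and 1.36, against 0.01, -0.33, 0.54 and 0.51 in set B, and rose 2.43-fold (1.28, SE 0.15, adjusted p = 0.000574). The Dusp10 mean of 1.46 against untreated cells was the highest of the 11 groups. Both calls held under all 16 alternative settings.

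Dusp6 fell by 0.60 (adjusted p = 0.0467) and Dusp14 by 0.51 (adjusted p = 0.0214), each with ranges that overlapped set B. Against untreated cells they stood at -0.13 (adjusted p = 0.624) and -0.26 (adjusted p = 0.0961), and the Dusp6 call was lost on leaving out any one of the 8 arrays except Nur77 replicate 4. The Dusp14 call was lost without Nur77 replicate 1 or 2 or set B replicate 1, 2 or 4. Dusp1 and Dusp2 were not called against set B (-0.21 and 0.45). Against untreated cells both were, at -0.73 (adjusted p = 0.0194) and 0.57 (adjusted p = 0.0265), the latter with single values of 0.69, 1.10, 0.004 and 0.48. The MEF2D-VP16 and Nur77 comparisons share set B, and Dusp2 lay below set B in the former (-0.88) and above it, uncalled, in the latter (0.45).

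In thymocytes, cells of DO11.10 mice, which can be selected on MHC, were set against cells of mhc -/- mice. Dusp6 was the largest change of the family. Its ratios were 1.70, 1.90, 2.43, 2.35, 2.07 and 2.01, with a change of 2.08 (SE 0.07, 4.22-fold, adjusted p = 1.36e-06). Dusp2 rose by 0.85 (lowest 0.42, median 0.65, highest 1.67, adjusted p = 0.00505). Dusp10 rose by 0.33 (adjusted p = 0.00594) and Dusp4 by 0.25 (adjusted p = 0.0247), both above 0 on all 6 arrays.

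Dusp14 fell by 0.25 (adjusted p = 0.0142), below 0 on 5 of 6 arrays, and Dusp1 was not called (0.02, 95% interval -0.13 to 0.16). This comparison had the widest background, with 20.5% of all probes higher and 15.8% lower, so the count of 4 higher and 1 lower is read against a large share. The small Dusp4 and Dusp14 changes were lost without replicate 1, 2, 4 or 5, and without replicate 2 or 3. Cell type markers differed as well, while cell proportions were not measured. Of 8 markers of mature single-positive thymocytes 6 rose and 1 fell, led by Gimap4 (3.21) and Itgb7 (2.15). Of 9 markers of double-positive thymocytes 5 fell, led by Ptcra (-1.33) and Rag2 (-1.14). Of 9 thymic epithelium markers 5 rose and 2 fell, with Ccl25 at 1.55 and Epcam at -1.19. Of 8 T cell markers 6 rose and 1 fell, with Cd5 at 3.77, and 3 of 6 B cell markers rose and 1 fell. Of 2 erythroid markers 1 rose (Alas2, 2.04), and of 7 macrophage and dendritic cell markers 0 rose and 2 fell. In bulk RNA, a change in the number of cells of a type and a change in RNA per cell cannot be told apart, and the part of these markers in the phosphatase changes was not tested.

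Peptide injection, which engages the transgenic receptor on thymocytes in the animal, raised Dusp4 at all 3 times and Dusp1 at 3 h and 6 h, and no other member was called. At 3 h, Dusp1 had a lowest ratio of -0.21, a median of 0.96 and a highest of 1.23 (change 0.81, SE 0.16, adjusted p = 0.0475). Dusp4 had a lowest of -0.09, a median of 0.96 and a highest of 1.01 (0.78, SE 0.13, adjusted p = 0.032). In both cases 5 of 6 arrays were above 0.8 and the exception was replicate 1. Each call was lost when any one of the other 5 arrays was left out. Over all alternative settings the adjusted p reached 0.184 for Dusp1 and 0.143 for Dusp4. Over all probes 1.49% rose and 1.21% fell at 3 h.

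At 6 h the arrays lay closer together. Dusp1 ranged from 0.45 to 0.85 (change 0.65, SE 0.07, adjusted p = 0.00185) and Dusp4 from 0.69 to 1.13 (0.84, SE 0.08, adjusted p = 0.000991), against 2.03% of all probes higher and 2.54% lower. Both were above 0 on 6 of 6 arrays and were called on every leave-one-out fit. At 12 h Dusp4 ranged from 0.85 to 1.87 (1.31, SE 0.16, 2.47-fold, adjusted p = 0.0165) and Dusp1 from 0.06 to 1.06 (0.56, SE 0.14, adjusted p = 0.077, not called). The Dusp4 call at 12 h was lost without replicate 3, 5 or 6, and Dusp1 was called at 12 h without replicate 2 (0.71, adjusted p = 0.0166). At that time 1.66% of all probes rose and 1.72% fell.

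Between times no member was called by limma. From 3 h to 6 h, 2 members, Dusp6 and Dusp14, had an unadjusted p under 0.05 by this test, as did 1291 of the 16463 probes. By adjusted p, 0.103% of all probes were called higher and 0.0304% lower. From 6 h to 12 h 1 member, Dusp4, had an unadjusted p under 0.05, as did 2495 of the 16463 probes. Its change was 0.47 (SE 0.18, 95% interval 0.08 to 0.86, adjusted p = 0.229). By adjusted p, 0.34% of all probes were called higher and 0.267% lower between these times. The Dusp4 means were 0.78, 0.84 and 1.31, and 12 h was not compared with 3 h.

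Dusp2 differed between slide sets at every time after peptide. At 6 h and 12 h the titles give 2 arrays of each time the series number 13 and the other 4 none. At 3 h all 6 titles carry series 13, and its slides 3 and 4 were set apart from slides 5 to 8 for this work, after the values were seen, because slide numbers 5 to 8 of series 13 also occur at 6 h and 12 h. The split at 3 h is thus not one that the titles state. On the set of 2 its mean was 1.46, 1.10 and 0.68 at 3 h, 6 h and 12 h, and on the set of 4 it was -0.25, -0.20 and -0.81. No array of one set reached the values of the other at the same time. Whole-group changes were therefore not called (0.32, 0.23 and -0.31). With the slide set as a block, Dusp2 was called higher at 3 h (0.60, adjusted p = 0.025) and 6 h (0.45, adjusted p = 0.00523). This fit gives both slide sets equal weight and takes the gap between them out of the spread. The set means had opposite signs at both times, and 4 of 6 arrays lay below 0 at 6 h. These calls therefore do not show a rise shared by both sets. On the set of 4 alone Dusp2 was called lower at 12 h (-0.81, adjusted p = 0.000937). With the block the change from 6 h to 12 h was -0.54 (adjusted p = 0.0146), and on the set of 4 alone it was -0.60 (adjusted p = 0.00281). With the block, Dusp1 was not called at 3 h (0.74, adjusted p = 0.0718) and was called at 12 h (0.47, adjusted p = 0.0254). The labels do not say what differs between the slide sets. Dusp1 and Dusp4 were split at single times. Dusp4 at 6 h lay between 0.98 and 1.13 on the set of 2 and between 0.69 and 0.76 on the set of 4, and Dusp1 at 12 h lay at 0.06 and 0.35 on the set of 2 and between 0.37 and 1.06 on the set of 4.

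**Figure D4:**
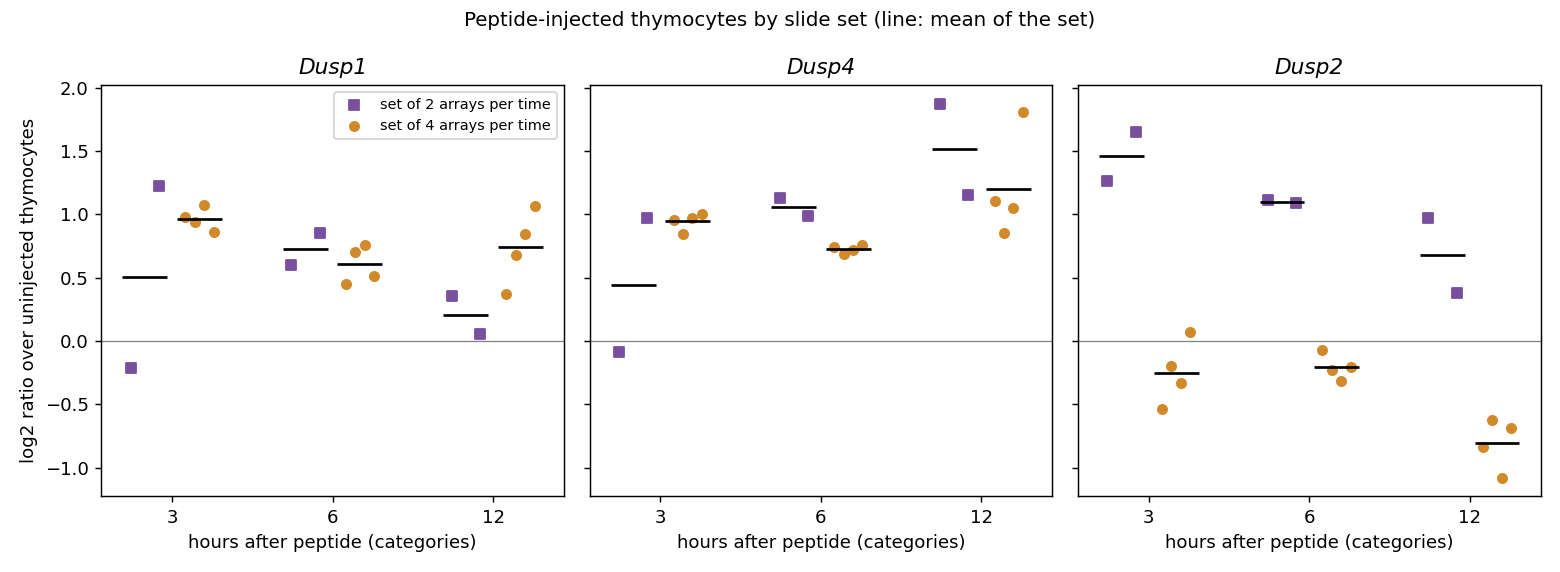
Log2 ratio over uninjected thymocytes (vertical axis) of Dusp1, Dusp4 and Dusp2 at 3, 6 and 12 h after peptide (horizontal axis, equally spaced categories), with squares for the set of 2 arrays per time, circles for the set of 4 and a line for each mean. For Dusp2 the squares lie above 0 and the circles near or below 0 at all 3 times, while Dusp4 lies above 0.6 on 17 of 18 arrays.

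Markers of other cells moved after peptide too. Of 9 thymic epithelium markers 4 fell at 3 h, 5 at 6 h and 2 at 12 h, and 0 rose, with Ccl25 at -1.55, -1.41 and -1.34, while the median of the list was -0.43, -0.43 and 0.27. Of 8 single-positive thymocyte markers 2 fell at 3 h, 3 fell and 1 rose at 6 h, and 0 were called at 12 h, with Itgb7 at -0.91 and -0.67 at the earlier times. Of 9 double-positive thymocyte markers 1 fell at 3 h, 1 at 6 h and 0 at 12 h. The whole list lay low, with medians of -0.27, -0.26 and -0.45 and highest values of -0.11, -0.18 and 0.07. Of 7 macrophage and dendritic cell markers 1 fell at 3 h, 2 at 6 h and 0 at 12 h, and the erythroid gene Alas2 fell at 3 h (-1.32) and 6 h (-0.81). Of 8 T cell markers 2 rose at 3 h, Cd5 (1.53) and Cd2 (0.38). At 6 h Cd5 rose (0.71) and Thy1 fell (-0.60), and at 12 h only Thy1 was called (-0.75). The median of this list was 0.07, -0.02 and 0.07. Of 6 B cell markers 1 fell at 6 h. The part of these markers in the phosphatase results was not tested.

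Dusp6, Dusp10 and Dusp14 were not called at any time after peptide with all arrays and no block. With the slide set as a block Dusp6 was called lower at 6 h (-0.31, adjusted p = 0.0346), and on the set of 4 alone Dusp14 was called higher at 12 h (0.37, adjusted p = 0.035). With all arrays Dusp6 stood at 0.01, -0.25 and -0.20, Dusp10 at 0.10, 0.08 and 0.16, and Dusp14 at 0.21, 0.04 and 0.27.

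Dusp6 ratios moved with dye orientation, and its gap between dyes was the widest of the 6 genes in every group except MEF2D-VP16, set B and Nur77. With test RNA in Cy5 its mean exceeded that with Cy3 by 1.67 in HDAC7-VP16, 1.36 at 12 h after peptide and 1.17 in set A, against 0.41 in DO11.10 over mhc -/- thymocytes. The groups hold both orientations equally and the fit has a dye term, so the group means are balanced. Within set A the pattern had 2 exceptions, replicate 3 (Cy5 by its title, -1.24) and replicate 9 (Cy3 by its title, 0.93), which lay among the arrays of the other orientation. These are the same arrays that correlated negatively with arrays of their own dye. With their orientations exchanged the SE of the set A mean went from 0.23 to 0.08. The mean of -0.39 was then called (adjusted p = 0.0186, against 0.556 with the dyes as titled). The Dusp6 rise with stimulation, unchanged at 1.12, had an adjusted p of 0.00795. The exchange was chosen after these values were seen, so a smaller SE and adjusted p follow from the choice and do not test it.

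**Figure D5:**
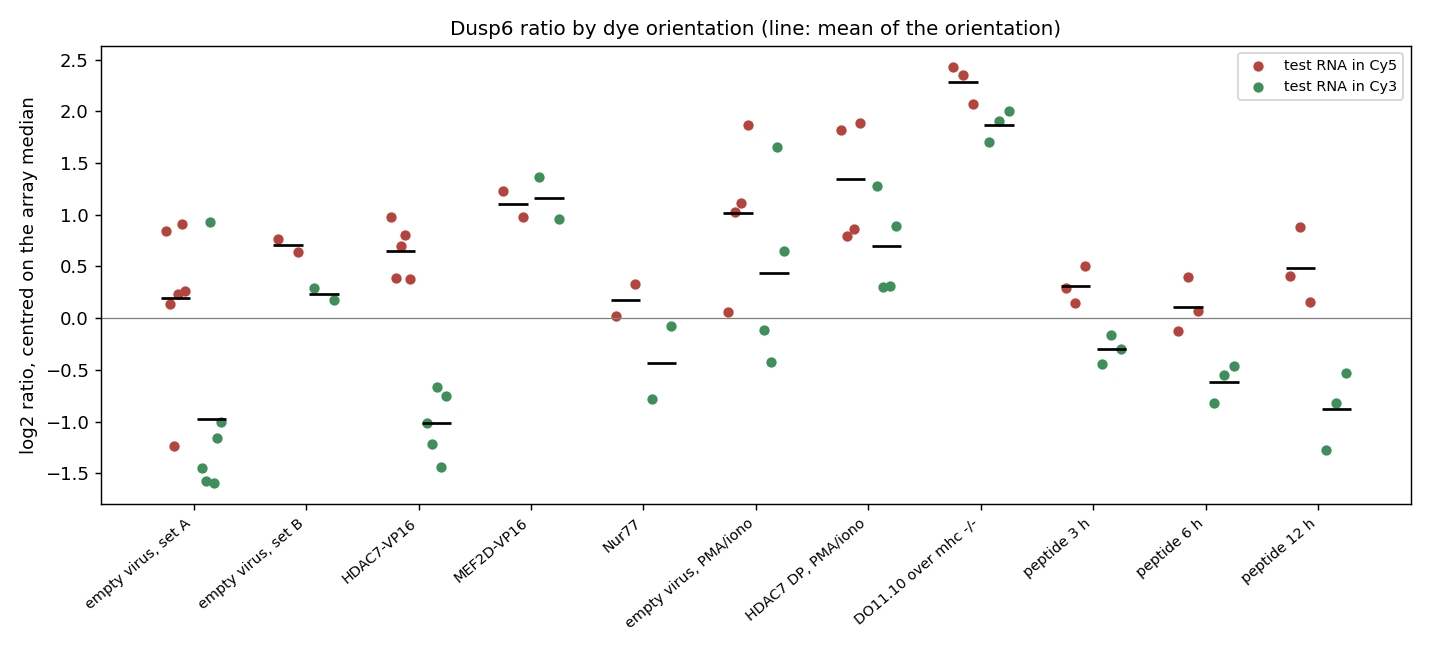
Log2 ratio of Dusp6 (vertical axis) in the 11 groups (horizontal axis) with test RNA in Cy5 (red, left) or Cy3 (green, right) and a line for each mean. The red mean lies above the green in every group, by 1.67 in HDAC7-VP16, except for MEF2D-VP16 where the means are 1.10 and 1.16.

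Ordered by group mean, neighbours mostly overlapped. Dusp4 ran from stimulated empty virus (2.74) through stimulated HDAC7 DP (1.92), Nur77 (1.82), peptide at 12 h (1.31), MEF2D-VP16 (1.25), peptide at 6 h (0.84) and at 3 h (0.78) to HDAC7-VP16 (0.51), set B (0.27), DO11.10 over mhc -/- (0.25) and set A (0.04). Its array ranges were separate between neighbours only from MEF2D-VP16 to peptide at 6 h. For Dusp6 the ranges parted only between the highest group, DO11.10 over mhc -/- (2.08), and the next, MEF2D-VP16 (1.13), and its lowest mean was in set A (-0.39). For Dusp1, Dusp2, Dusp10 and Dusp14 every group overlapped the next in order. Dusp1 ran from 0.81 at 3 h after peptide to -0.73 with Nur77, Dusp2 from 2.85 with stimulation to -0.77 with MEF2D-VP16, and Dusp10 from 1.46 with Nur77 to -0.91 with stimulated HDAC7 DP. Dusp14 had the narrowest span of means, from 0.32 with HDAC7-VP16 to -0.26 with Nur77.

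The members did not follow one profile. Over the 11 group means, which share partner RNAs and slide sets, Pearson's r was highest for Dusp2 with Dusp4 (0.583) and lowest for Dusp1 with Dusp10 (-0.495). The other 13 of the 15 pairs lay between -0.419 and 0.248. By the same measure the gene most like Dusp2 was Arc (0.929), an immediate early gene first known from neurons. Those most like Dusp4 were Tgfa (0.944), a growth factor of the EGF family, and Ptger2 (0.901), a prostaglandin receptor, though Tgfa spanned only -0.08 to 0.15. Nabp1 (0.912), which encodes a single-strand DNA-binding protein, was most like Dusp6. Mllt3 (0.936 and 0.894 by its 2 probes) and Tmem67 (0.936) were most like Dusp10. Psmb4 (0.916), a proteasome subunit, was most like Dusp1, and Dhx30 (0.947), an RNA helicase, most like Dusp14. The spans of these last genes were also narrow, at -0.06 to 0.32 for Psmb4 and -0.11 to 0.25 for Dhx30. Of the 3 genes most like each member, Spearman's measure shared 2 for Dusp4, 1 for Dusp6 and 0 for the others.

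The wider pathway was read from lists, whose counts are to be read beside the share of all probes called in the same comparison. The shares were 6.07% higher and 6.43% lower with stimulation, and 0.522% and 1.12% with HDAC7 DP against stimulated empty virus. They were 1.42% and 1.29% with HDAC7-VP16, 6.4% and 6.16% with MEF2D-VP16, and 3.62% and 3.29% with Nur77. For DO11.10 over mhc -/- thymocytes they were 20.5% and 15.8%. After peptide they were 1.49% and 1.21% at 3 h, 2.03% and 2.54% at 6 h, and 1.66% and 1.72% at 12 h. Of 15 other dual-specificity phosphatase genes, 2 rose and 1 fell with stimulation, led by Styx (-0.82), a catalytically inactive relative, and Dusp11 (0.67), an RNA phosphatase, with a list median of 0.04 beside -0.01 over all probes. In stimulated HDAC7 DP cells against stimulated empty virus 1 fell (Dusp22, -0.27), and after peptide 0 were called at 3 h, 6 h or 12 h. With MEF2D-VP16 2 fell, Dusp12 (-1.19) and Styx (-0.71), and 1 rose, the JNK and p38 phosphatase gene Dusp8 (0.81). In DO11.10 over mhc -/- thymocytes 2 rose and 3 fell, with Dusp16, a JNK phosphatase, at -0.95, which is close to the shares over all probes. Of 5 MAP kinase phosphatases outside the family 1 rose with stimulation (Ppm1a, 0.31), as it did in DO11.10 thymocytes (1.38).

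Among 14 inhibitors of Ras and ERK signalling, 5 rose and 1 fell with stimulation, led by Spry1 (2.03), a feedback inhibitor of receptor signalling, and Sh2b3 (1.25), an adaptor that restrains cytokine signals. After peptide 1 of the 14 rose and 1 fell at 3 h and again at 6 h, and 0 were called at 12 h. These were Spry1 (1.37 and 0.60) and Rasa3 (-0.95 and -0.98). In DO11.10 over mhc -/- thymocytes, where Dusp6 rose, 5 rose and 2 fell, beside 20.5% and 15.8% of all probes. Dok2 (1.47) and Rasa3 (0.88) rose there, and Spry1 fell (-0.70). Among 23 MAP kinases and their activators, 3 rose and 1 fell with stimulation, with Map2k3, a p38 activator, at 1.42. In DO11.10 thymocytes, where 20.5% of all probes rose and 15.8% fell, 11 rose and 3 fell, with Mapk14, which encodes p38 alpha, at 1.77. Map3k8, a kinase above ERK, rose at 3 h (1.40), 6 h (1.18) and 12 h (1.07) after peptide, and fell by 0.38 in stimulated HDAC7 DP cells against stimulated empty virus.

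Of 20 immediate early genes of MAP kinase signalling, 15 rose and 0 fell with stimulation (median 1.20, beside -0.01 over all probes), and 11, 12 and 6 rose at 3 h, 6 h and 12 h after peptide with 0 falling. With HDAC7 DP against empty virus 0 rose and 3 fell, namely Nr4a1 (-2.41), Nab2 (-1.92) and Atf3 (-0.90). With HDAC7-VP16 1 rose, Nr4a1 (3.28), and 4 fell, among them Egr1 (-1.35) and Ier3 (-1.23). With MEF2D-VP16 3 rose, Ier3 (1.885), Nr4a1 (1.23) and Jund (0.52), and 0 fell. With Nur77 1 rose and 5 fell, with Egr1 at -1.42. The gene that rose was Nr4a1 (4.36), which encodes the transduced Nur77 itself, so its rise is no response of the cells. In DO11.10 over mhc -/- thymocytes 8 rose and 5 fell, beside 20.5% and 15.8% of all probes, led by Egr1 (3.16). Dusp1 thus fell with stimulation against set A, where 15 of these genes rose. It rose at 3 h and 6 h after peptide, where 11 and 12 rose. Its mean in stimulated empty-virus cells (-0.49) was not below that of unstimulated set B (-0.52), so the fall depends on the control used.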

How the data were processed

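Gene expression was measured on 74 two-colour arrays in 11 groups, taken from the array titles. The authors deposited 1 log2 ratio per probe and array (16463 probes, 0 missing values). The labels give neither scanner, background correction, normalization nor direction of these ratios, so base 2 and test over partner are assumptions. Any compression or dye bias from those steps is therefore unmeasured.

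Each array was centred on its median (medians from -0.021 to 0.023). Ratios were fitted with limma 3.58.1 in R 4.3.3 (lmFit and eBayes, with a dye orientation term), 14 comparisons in all, and p-values were adjusted over all probes by Benjamini-Hochberg. The arrays' number limits the precision. Of the probes, 14551 had 1 gene symbol and 14272 had an Entrez ID in the RefSeq table (GRCm38.p6). The fit was tested on simulated data. The 6 genes, the gene lists and the tests were chosen with earlier results of these data known.

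Every member is named. From each list, up to 3 called genes per comparison with the largest change are named, and likeness is Pearson's r over the 11 group means. Arrays were treated as replicates, although slides of one number or pair may share RNA, and 4 slide numbers of the peptide groups are each borne by 2 arrays. The labels name Cy3 for both channels, so the dyes were read from the titles, and the source name of HDAC7-VP16 replicate 1 names the empty virus. Alternatives left out the dye term, rescaled arrays, used all groups in one fit, split or averaged slides, changed the control, and left out arrays.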

Additional observations from a re-analysis of the deposited data

Results flagged for a closer look

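Of 60 pairs of gene and group with 4 to 10 arrays, 5 held an array whose gap to the rest was wide for the range of its group, and chance gives about 1 in 20. At 3 h after peptide, replicate 1 had a Dusp1 ratio of -0.215, with the others from 0.861 to 1.227, and a Dusp4 ratio of -0.088, with the others from 0.841 to 1.006. The same group held replicate 3 with a Dusp10 ratio of -0.557, with the others from 0.076 to 0.347. In that group replicate 4 had a Dusp14 ratio of 0.404, with the others from 0.119 to 0.225. At 6 h after peptide, replicate 3 had a Dusp14 ratio of 0.269, with the others from -0.05 to 0.066.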

How the results depend on the processing

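No paired analysis was possible because the replicate numbers only follow accession order. Slide series, slide numbers, slide pairs and slide sets were instead used as blocks, averaged or taken alone. Of 34 called member changes, 10 kept call and direction under every alternative with a test and 32 never reversed. Against all 16 empty-virus arrays in place of set B, Dusp1 with MEF2D-VP16 was -0.21 and Dusp6 with Nur77 was 0.048, both reversed. The cause was not tested for any change below. Counts of called members follow, with the count as reported first. The share of all probes called under each alternative was not recorded. These counts therefore show how the calls depend on the fit, and are not read as results about the members.

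Set A had 1, but 0 on series 14 alone, 2 on series 15 alone, 0 with slides of one number averaged, 0 with replicates 3 and 9 turned in sign, 2 without them and 3 with their dyes exchanged. Set B had 2, but 0 when dye was left out and 0 in the fit of all groups. HDAC7-VP16 had 2, but 1 without the dye term, 1 with arrays scaled, 0 on series 14, 4 on series 15, 1 without set A replicates 3 and 9, 1 without its replicate 1, 4 without its replicates 9 and 10, and 1 against all 16 empty-virus arrays. Stimulation had 5, but 2 on series 14, 3 with slides averaged, 3 against all 16 arrays and 3 against untreated cells. HDAC7 DP against stimulated empty virus had 2, but 1 on series 14, 0 on series 15, 1 with slides averaged and 0 with slide pairs averaged. HDAC7 DP against set A had 4, but 2 on series 14. MEF2D-VP16 had 4, but 0 with all groups and 1 against all 16 arrays. Nur77 had 4, but 2 without the dye term and 2 with all groups. DO11.10 over mhc -/- had 5, but 3 with all groups. Peptide at 3 h had 2, but 1 without the dye term and 0 with arrays scaled. Peptide at 6 h had 2, but 4 with the slide set as a block. Peptide at 12 h had 1, but 2 with all groups, 2 with the block and 4 on the set of 4 arrays. From 6 h to 12 h it was 0, but 1 with the block and 1 on the set of 4.

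With single arrays left out the count ran from 0 to 2 for set B, 2 to 4 for MEF2D-VP16, 2 to 4 for Nur77, 3 to 5 for DO11.10 over mhc -/-, 0 to 2 at 3 h, 2 to 2 at 6 h and 0 to 2 at 12 h. The exchanged dyes, the slide sets, the slide pairs, the removal of HDAC7-VP16 replicates 9 and 10 and of exact zeros were chosen after seeing the data.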
